A study of Mus musculus with 2 samples.

Results

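The 54 genes described here are the Wnt ligands, R-spondins, receptors and antagonists of the mouse, together with a few intracellular readouts of the pathway. They were chosen by symbol from the 55416 genes of the count table: every protein-coding Wnt, Frizzled (Fzd), secreted frizzled-related protein (Sfrp), Dickkopf (Dkk) and R-spondin (Rspo) gene, plus Lgr4, Lgr5, Lgr6, Lrp5, Lrp6, Axin2, Notum, Lef1, Tcf7, Nkd1, Wif1, Rnf43 and Znrf3. The rule uses symbols and no measured value. RNA-seq counts were available from 2 rhabdoid tumors (RT), malignant tumors that mostly follow loss of the SWI/SNF subunit Smarcb1, from Dppa3-cre::Smarcb1 Fl/+ mice on a C57BL/6 background. In this model Cre recombinase comes from the Dppa3 locus, which is active in primordial germ cells, and 1 of the Smarcb1 alleles is floxed, so that the loss of the other allele is left to chance. One tumor was labelled intracranial with the trigeminal nerve as its site, the other extracranial with a facial, maxillar site, and both carried the classification MYC. No tumor-free tissue was among the samples and the age of the mice was not given in the sources used here.

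With 1 library per location there were no replicates, so every difference below is one between 2 libraries and has no replicate check. The libraries held 34545846 and 26915696 counts (here and throughout, the intracranial-labelled library is given first and the extracranial-labelled library second). The members took 31416 and 32854 of these counts, or 0.0909% and 0.122%. Smarcb1 (ENSMUSG00000000902), the targeted gene, had 365 and 530 counts. Expressed as CPM, each count divided by the scaled depth in the usual unit, these were 10.5 CPM (95% exact interval 9.45 to 11.6) and 19.8 CPM (18.2 to 21.6), so Smarcb1 transcripts were present in both; a count over the whole gene does not separate reads of the deleted part or of other cells. The single-cell markers Postn, Tnn, C1qtnf3, Prelp and Tlx2 stand for extracranial RT cells in the study. All 5 had more scaled counts in the intracranial-labelled library (median log2 ratio -2.80), which is why the libraries are called by their labels. Whether the labels had been exchanged was not tested; an exchange would turn every direction given below and leave the sizes as they are. Markers of other cell types also separated the libraries: 10 of 10 keratinocyte genes were higher in the intracranial-labelled library (21795 and 5.57 CPM in sum, with Krt5, Krt1, Krt6a, Trp63 and Dsg3 at 0 counts in the other), as were 7 of 8 gland and simple epithelium genes (2499 and 20.6 CPM) and 8 of 8 skeletal muscle genes with a ratio (53.6 and 10.7 CPM, 4 of them called), whereas 9 of 9 macrophage genes (3016 and 8876 CPM) and 9 of 9 endothelial genes (218 and 361.7 CPM) were higher in the extracranial-labelled library. The bone and tooth list was mixed: its sum of 21.2 and 169.7 CPM rested on Dmp1 (29 and 3988 counts) and was 20.3 and 20.7 CPM without it, while Bglap (60 and 4 counts) and Ibsp (186 and 15) were called higher in the intracranial-labelled library. Of 10 Schwann cell genes, which bear on the nerve label, 8 were higher in the intracranial-labelled library, with Sox10 at 43 and 0 counts. Egr2 of the same list went the other way and was called, with 630 and 2396 counts (log2 ratio 2.30 [2.18, 2.43]). Foxd3 was not resolved (11 and 11 counts), and the list sums were 250.9 and 241.2 CPM. Neuron genes, which also bear on that label, were mixed. Of 8, 5 were higher in the extracranial-labelled library and 3 in the intracranial-labelled library (85.0 and 138.6 CPM in sum). Nefl was the 1 neuron gene called, with 396 and 1613 counts. In bulk tissue, fewer cells of a type and less RNA per cell cannot be told apart.

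Wnt proteins are secreted lipid-modified ligands that bind Frizzled receptors together with the co-receptors Lrp5 and Lrp6. In the canonical branch this binding holds off the complex that degrades beta-catenin, which then enters the nucleus and acts with Tcf and Lef factors on target genes such as Axin2, itself a brake on the pathway. Secreted antagonists act before this step, the Sfrp proteins and Wif1 by binding Wnt proteins and Dickkopf proteins at Lrp5 and Lrp6, while R-spondins act through Lgr receptors to keep the ubiquitin ligases Rnf43 and Znrf3 from removing Frizzled proteins from the cell surface.

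A ratio is always extracranial over intracranial, on the log2 scale, after TMM scaling (edgeR's trimmed mean of M-values), so a negative value means higher in the intracranial-labelled library. Brackets hold 95% exact counting intervals, which cover counting error only and no difference between animals, because each location had 1 library. They may understate even the counting error, since without molecular identifiers reads may be copies of the same molecule. A gene was called where this whole interval lay beyond 4-fold and it had 10 or more counts over both libraries. Of the 54 members, 45 reached that count and 9 did not, and of the 45, Wnt3a, Rspo4, Fzd10, Nkd1 and Dkk1 reached it through 1 library alone, with 3 or fewer counts in the other. Higher in the intracranial-labelled library were 11 of the 45 (24.4%), against 5.41% of the 21977 genes tested in the whole table, and higher in the extracranial-labelled library were 3 (6.67%), against 1.78%. The corresponding shares of protein-coding genes were 6.83% and 2.11%. At the looser limit of 2-fold the members divided into 16 (35.6%, against 9.77%) and 5 (11.1%, against 5.86%). The median log2 ratio of the 47 members with a ratio was -0.43 and that of all 24490 genes with one was -0.04, with a range among members from -5.96 to 4.42.

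**Figure D1:**
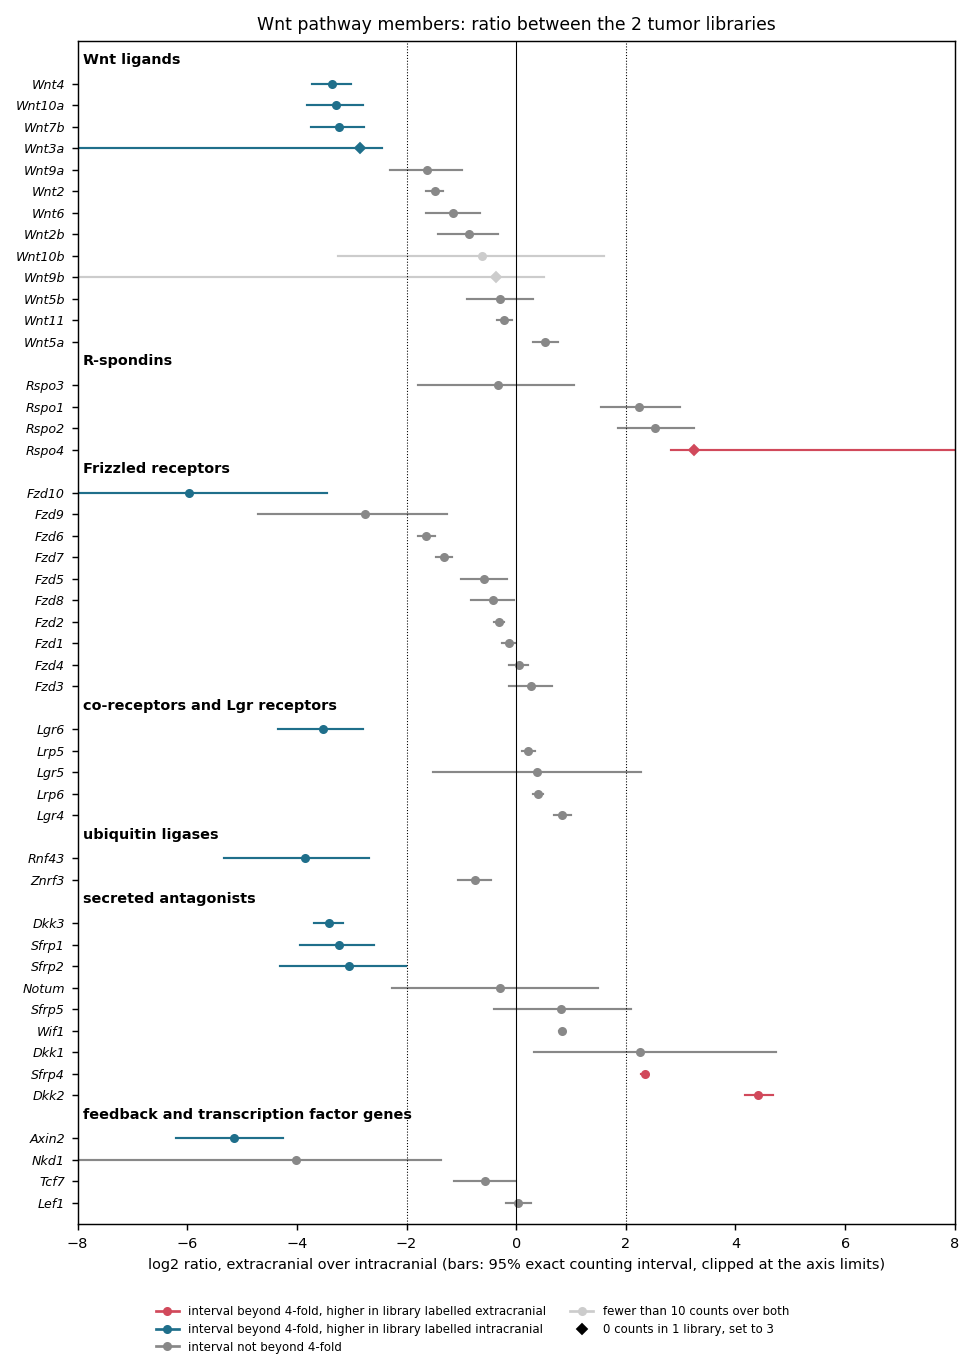
Log2 ratio of the extracranial-labelled library over the intracranial-labelled library (x axis) for each of the 47 members with a ratio, sorted within 7 role groups, with 95% exact counting intervals as bars and dotted lines at 4-fold. The called members on the left include Wnt4, Fzd10, Lgr6, Rnf43, Dkk3 and Axin2, and the 3 on the right are Rspo4, Sfrp4 and Dkk2.

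Promoter sequence of the mouse reference was at hand for 35 of the 54 members, in 43 windows of the 250 bases before an annotated start (RefSeq, build GRCm38.p6). Of these windows 4 are shown because the results turn on their genes. Among members with a window, Dkk2 and Axin2 had the near interval bounds farthest from equal levels, 1 in each direction. Wif1 had the highest level of all members, and Wnt11 was a leading ligand. They lie on the plus strand at chr3:132085042-132085291 (Dkk2), chr11:108920099-108920348 (Axin2), chr10:121033754-121034003 (Wif1) and chr7:98834862-98835111 (Wnt11, the first of its windows), and run 5′ to 3′ up to the base before the start. Capitals mark matches to TATAAA, the core of a TATA box, and to CTTTGAA or CTTTGAT, forms of the sequence bound by Tcf and Lef factors, searched on both strands (a match on the minus strand reads TTTATA or ATCAAAG here).
Dkk2: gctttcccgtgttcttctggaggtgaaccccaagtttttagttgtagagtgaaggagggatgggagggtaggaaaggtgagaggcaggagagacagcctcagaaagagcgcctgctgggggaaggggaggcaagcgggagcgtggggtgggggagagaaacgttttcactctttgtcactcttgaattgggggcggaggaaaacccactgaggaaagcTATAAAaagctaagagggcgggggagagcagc
Axin2: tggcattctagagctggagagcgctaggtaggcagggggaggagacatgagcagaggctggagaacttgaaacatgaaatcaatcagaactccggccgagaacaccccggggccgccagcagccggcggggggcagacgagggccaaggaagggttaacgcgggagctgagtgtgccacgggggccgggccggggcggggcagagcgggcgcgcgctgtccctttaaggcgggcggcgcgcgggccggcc
Wif1: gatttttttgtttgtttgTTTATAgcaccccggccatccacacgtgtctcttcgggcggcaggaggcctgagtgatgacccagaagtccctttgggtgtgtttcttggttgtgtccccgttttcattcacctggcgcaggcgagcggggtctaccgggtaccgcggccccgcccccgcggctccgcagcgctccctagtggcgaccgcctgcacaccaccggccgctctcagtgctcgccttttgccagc
Wnt11: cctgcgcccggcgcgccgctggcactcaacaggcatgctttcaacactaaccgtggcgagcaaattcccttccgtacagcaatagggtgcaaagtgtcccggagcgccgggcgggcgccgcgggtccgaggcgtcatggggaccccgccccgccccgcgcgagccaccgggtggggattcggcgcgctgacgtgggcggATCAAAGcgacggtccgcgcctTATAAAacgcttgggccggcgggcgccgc

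The Dkk2 window held TATAAA starting 32 bases before the start, the Wnt11 window held it 29 bases before the start and also CTTTGAT on the minus strand 51 bases before it, and the Wif1 window held TATAAA on the minus strand 232 bases before the start. The Axin2 window held none of these motifs, which says only that the letters are not in these 250 bases. Over all members, 7 of 43 windows (16.3%) held TATAAA, namely those of Dkk1, Dkk2, Fzd1, Lef1, Tcf7, Wif1 and Wnt11, against 12.4% of the 32851 windows in the table. Either Tcf/Lef form was in 3 of 43 (6.98%; Dkk1, Wnt5b and Wnt11), against 7.48% of all windows. The GC content of the 4 windows shown was 55.6% for Dkk2, 69.2% for Axin2, 62.8% for Wif1 and 70.8% for Wnt11, where the median of all windows was 52.4%.

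The 19 Wnt ligand genes were mostly higher in the intracranial-labelled library. Of the 13 with a ratio 12 were higher there, and the exception was Wnt5a. Among all 24490 genes with a ratio, 13280 were higher there. Intervals lay below 0 for 9 of the 13 ligands (69.2%, against 29.5% of all genes) and spanned 0 for 3. Wnt10b and Wnt9b were below the minimum of 10 counts. Counts of the 19 ligand genes summed to 152.8 and 68.4 CPM, a 2.23-fold difference, and the median log2 ratio of the ligands was -1.15. More than 3 counts were found for 13 ligand genes in the intracranial-labelled library and for 10 in the other.

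The ligands called were Wnt4, Wnt10a, Wnt7b and Wnt3a, each higher in the intracranial-labelled library. Wnt10a (ENSMUSG00000026167, chromosome 1), required for teeth and skin appendages, had 456 and 36 counts, or 13.1 and 1.35 CPM. It was 9.75-fold higher in the intracranial-labelled library (95% interval 6.94 to 14.1). Wnt4 (ENSMUSG00000036856, chromosome 4), known for its part in kidney and ovary development, had 931 and 70 counts, which made it 10.2-fold higher in the same library (8.03 to 13.3). Wnt7b (ENSMUSG00000022382, chromosome 15), a ligand of lung and skin epithelium, had 491 and 40 counts and was 9.45-fold higher (6.84 to 13.4). In each of these cases the intervals of the levels in the 2 libraries lay far apart. Wnt3a (ENSMUSG00000009900, chromosome 11), a canonical ligand of the early embryo, had 28 counts in the intracranial-labelled library and 0 in the other, where a count of 0 allows up to 0.138 CPM. With that 0 set to the floor of 3 counts it was 7.19-fold higher, and the near bound of its interval lay at 5.47-fold. These 4 called ligands moved with the keratinocyte, gland and skeletal muscle lists, whose part in the result was not tested.

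By level, however, other ligands led. On the scale of CPM per kilobase of exon, which allows genes to be compared, Wnt2 (ENSMUSG00000010797, chromosome 6), a ligand of lung and placenta mesenchyme, was highest in both libraries with 19.5 (18.5 to 20.5) and 6.96 (6.31 to 7.66). It had 1529 and 420 counts and a log2 ratio of -1.49 [-1.65, -1.33], short of the 4-fold limit. Wnt11 (ENSMUSG00000015957, chromosome 7), a ligand usually placed in the branch that does not use beta-catenin, followed with 7.94 (7.48 to 8.41) and 6.83 (6.35 to 7.33), from 1141 and 756 counts, and its log2 ratio was -0.22 [-0.35, -0.08]. In the extracranial-labelled library the intervals of Wnt2 and Wnt11 overlapped, so their order there was not resolved. Wnt11 thereby made up 16.6% of the summed ligand level per kilobase in one library and 35.9% in the other, and Wnt2 40.9% and 36.6%. Next in order were Wnt4 and Wnt10a (6.39 and 5.32) in the intracranial-labelled library, and Wnt5a (1.66) in the extracranial-labelled library.

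The remaining ligands were low or differed less. Wnt5a, the other widely studied ligand outside the beta-catenin branch, had 313 and 348 counts and a log2 ratio of 0.53 [0.31, 0.75]. For Wnt6 (138 and 48 counts), Wnt2b (97 and 41) and Wnt9a (2.99 and 0.972 CPM) the log2 ratios ran from -1.62 to -0.87 with intervals below 0, and that of Wnt5b (65 and 41) was -0.29 [-0.89, 0.30]. Wnt10b had 6 and 3 counts and Wnt9b 5 and 0, too few to resolve a difference. At or below the floor of 3 counts in both libraries were Wnt16 (3 and 0), Wnt1 and Wnt8a (1 and 0 each), Wnt8b (0 and 1), and Wnt3 and Wnt7a, which had no counts at all.

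**Figure D2:**
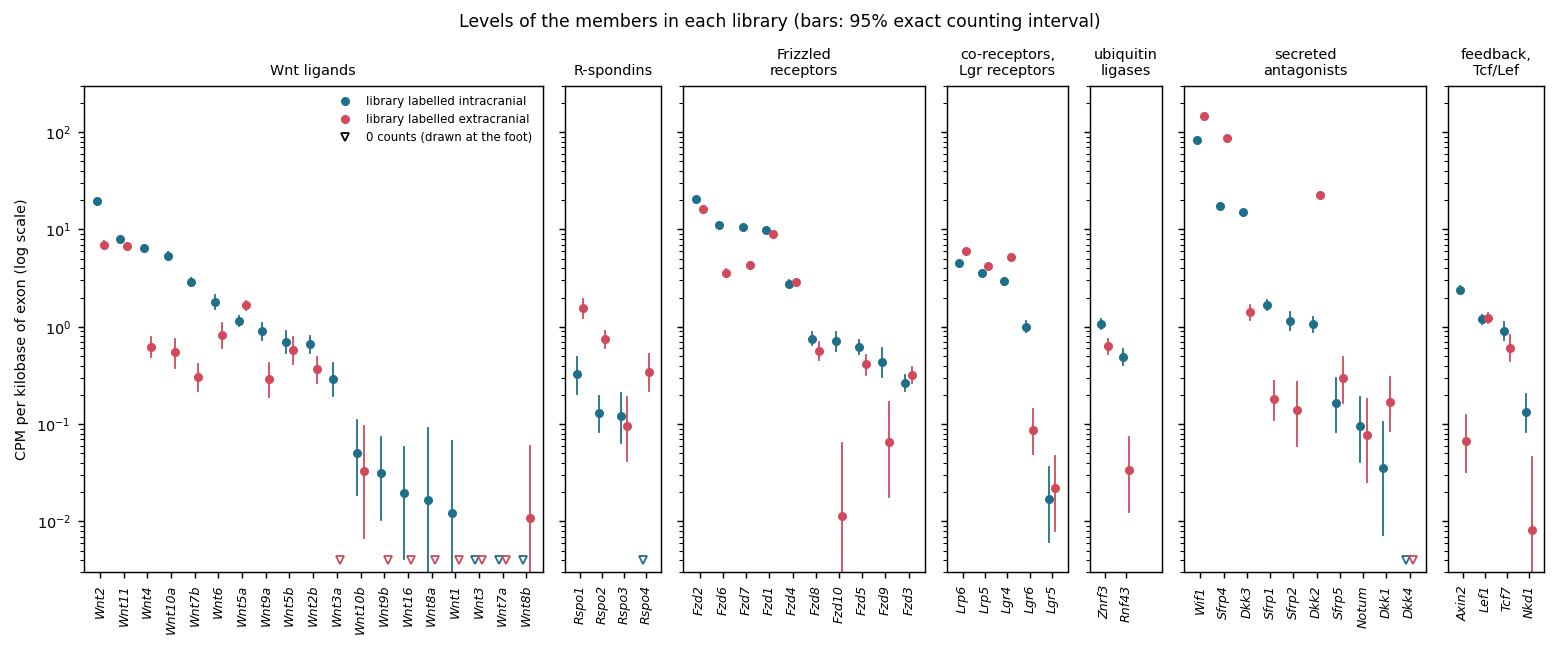
Level of every member in CPM per kilobase of exon (y axis, log scale) in the intracranial-labelled library (blue) and the extracranial-labelled library (red), by role group, with 95% exact counting intervals as bars and open triangles at the foot for 0 counts. Wif1 and Sfrp4 stand above all ligands and receptors in the extracranial-labelled library at 147.3 and 87.8, and the R-spondins stay below 2 in both.

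R-spondins went the other way at low levels. For Rspo1 (ENSMUSG00000028871), 22 and 80 counts gave a log2 ratio of 2.24 [1.54, 2.99], and for Rspo2 (ENSMUSG00000051920), 23 and 102 counts gave one of 2.53 [1.86, 3.25]. Rspo4 (ENSMUSG00000032852, chromosome 2), the R-spondin needed for nails, had 0 and 22 counts and was called. With the 0 set to 3 counts it was 9.52-fold higher in the extracranial-labelled library (near bound 7.11-fold). A count of 0 in the intracranial-labelled library allows up to 0.106 CPM. Rspo3 (13 and 8 counts) was not resolved at -0.32 [-1.80, 1.06]. Thus 3 of 4 R-spondins lay beyond 2-fold in the same direction, against 5.86% of all genes tested. Of these 3, Rspo4 reached the count minimum only through the library where it was high. The R-spondin sum was 1.67 and 7.92 CPM, a 4.75-fold difference. Rspo1 had the highest level of the R-spondins, with 0.327 and 1.54 CPM per kilobase.

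Frizzled receptors were expressed broadly in both libraries, and 8 of 10 had intervals below 0, as did 29.5% of all genes with a ratio and 36.3% of the protein-coding ones. With many counts such an interval excludes 0 at small ratios, and only Fzd10 was called among them. Fzd2 (ENSMUSG00000050288, chromosome 11) had the highest level, with 20.4 (19.6 to 21.2) and 16.3 (15.5 to 17.1) CPM per kilobase from 2591 and 1600 counts, and a log2 ratio of -0.32 [-0.41, -0.23]. Fzd6 (ENSMUSG00000022297, chromosome 15), a receptor of planar cell polarity that orients hair follicles, came next in the intracranial-labelled library, with 11.1 and 3.57 CPM per kilobase. Its 1857 and 460 counts gave a 3.11-fold difference (2.81 to 3.45), and the gene on the opposite strand that overlaps its exons had 57 and 7 counts. The interval of Fzd6 there (10.6 to 11.6) overlapped that of Fzd7 (10.1 to 11.2), while Fzd1 (ENSMUSG00000044674) took second place in the extracranial-labelled library with 8.94 (8.40 to 9.51). Fzd1 differed little between the libraries, at -0.13 [-0.25, -0.02] from 1430 and 1004 counts.

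Fzd10 (ENSMUSG00000081683, chromosome 5) had 81 counts in the intracranial-labelled library and 1 in the other. This gave a 62.4-fold difference whose interval, from 10.9 to 2494, was wide because of the single count. Fzd7, with 1676 and 520 counts, was 2.48-fold higher in the intracranial-labelled library, and Fzd9, with 35 and 4, had a log2 ratio of -2.75 [-4.71, -1.27]. For Fzd3, Fzd4, Fzd5 and Fzd8 the log2 ratios lay between -0.58 and 0.26, on 76 to 650 counts per library. Summed over the family the level was 57.5 and 37.4 CPM per kilobase, of which Fzd2 made 35.4% and 43.7%.

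**Figure D3:**
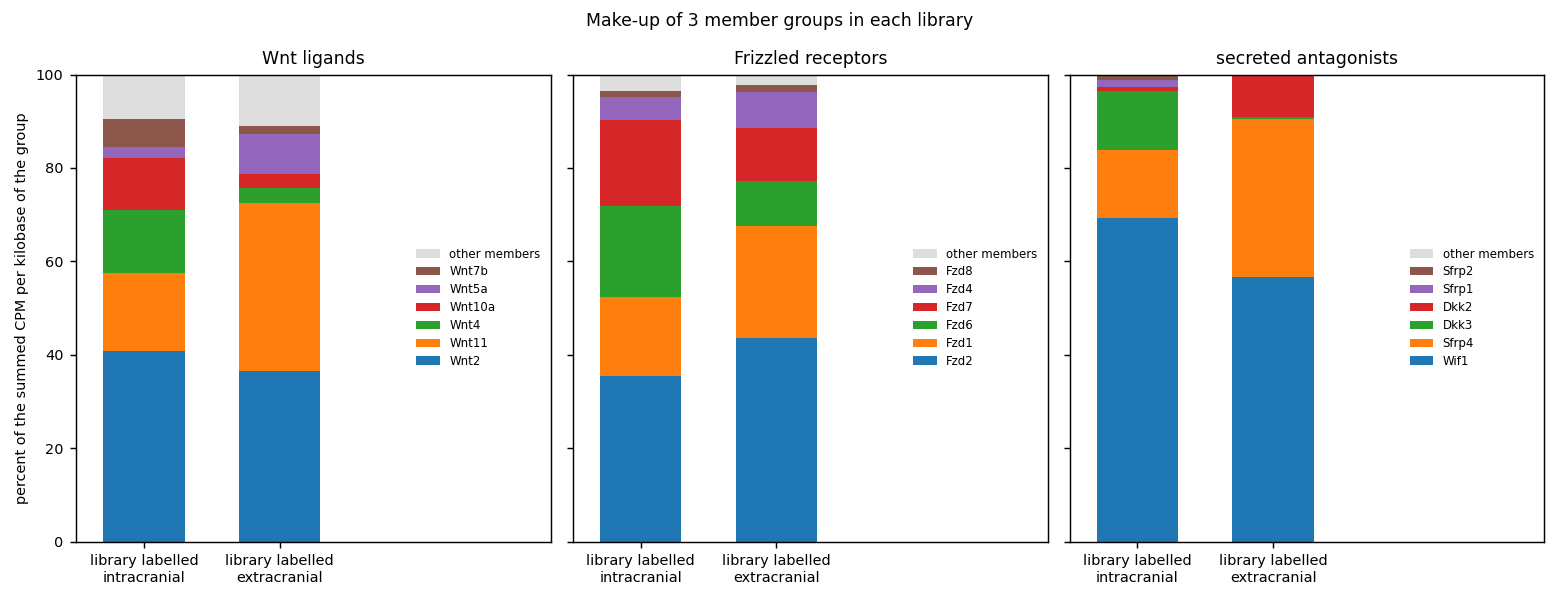
Share of each member in the summed CPM per kilobase of its group (y axis, percent) for Wnt ligands, Frizzled receptors and secreted antagonists, with 1 stacked bar per library. Wnt11 grows from 16.6% to 35.9% of the ligands between the intracranial-labelled library and the extracranial-labelled library, Fzd6 shrinks from 19.3% to 9.55% of the receptors, and Dkk3 shrinks from 12.6% to 0.543% of the antagonists.

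The co-receptors Lrp5 and Lrp6 differed little between the libraries. Lrp6 (ENSMUSG00000030201) had 2165 and 2194 counts and a log2 ratio of 0.40 [0.31, 0.48], and Lrp5 (ENSMUSG00000024913) had 1222 and 1099 and one of 0.22 [0.11, 0.34]. Lgr4 (ENSMUSG00000050199), the broadly expressed R-spondin receptor, had 598 and 823 counts and a log2 ratio of 0.84 [0.68, 0.99]. All 3 were slightly higher in the extracranial-labelled library. In per-kilobase levels Lrp6 was first in both libraries (4.56 and 6.0), with Lrp5 second in one (3.61) and Lgr4 second in the other (5.23).

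Lgr6 (ENSMUSG00000042793, chromosome 1), an R-spondin receptor that marks stem cells of the hair follicle, behaved unlike Lgr4: it had 238 and 16 counts and was 11.5-fold higher in the intracranial-labelled library (6.91 to 20.4). Lgr5, the intestinal and hair follicle stem cell marker, had 6 counts in each library. Rnf43 (ENSMUSG00000034177, chromosome 11), a membrane ubiquitin ligase and itself a Wnt target, had 112 and 6 counts and was 14.4-fold higher in the intracranial-labelled library (6.40 to 40.0). Its paralog Znrf3 (ENSMUSG00000041961) had 291 and 133 counts and was not called, at -0.75 [-1.06, -0.45]. Both ligases were therefore higher in the same library but by unequal amounts, with intervals that did not overlap. As with the called ligands, Fzd10, Lgr6 and Rnf43 moved with the epithelial and muscle lists and the part of these was not tested.

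Secreted antagonists were the group with the highest summed level per kilobase in both libraries (119.3 and 260.0), and calls within it went in both directions. They summed to 338.1 and 815.1 CPM, 2.41-fold higher in the extracranial-labelled library, although 3 of the 9 tested were called higher in the intracranial-labelled library and 2 in the other. Wif1 (ENSMUSG00000020218, chromosome 10), Wnt inhibitory factor, had the highest level of all 54 members in both libraries, with 6979 and 9568 counts and 82.8 (80.8 to 84.7) and 147.3 (144 to 150) CPM per kilobase. These levels were at the 95.9 and 97.2 percentiles of the 24321 genes above the floor with a known exon length. Its log2 ratio was 0.83 [0.79, 0.88], so Wif1 was 1.78-fold higher in the extracranial-labelled library and was not called.

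Sfrp4 (ENSMUSG00000021319, chromosome 13), a secreted Wnt-binding protein known from bone, had 2513 and 9818 counts. It was 5.07-fold higher in the extracranial-labelled library (4.86 to 5.30) and second there by level, with 87.8 CPM per kilobase against 17.3. Within the Sfrp family it made 85.2% and 99.3% of the summed level per kilobase. Sfrp1 and Sfrp2 went the opposite way. Sfrp1 (ENSMUSG00000031548, chromosome 8) had 256 and 21 counts and was 9.39-fold higher in the intracranial-labelled library (6.01 to 15.4). Sfrp2 (ENSMUSG00000027996, chromosome 3) had 86 and 8 counts and was 8.28-fold higher there (4.02 to 19.8), a call that was lost with DESeq2 size factors (log2 ratio -3.03) and with upper quartile scaling (-3.01). Sfrp5 had 11 and 15 counts and a log2 ratio of 0.82 [-0.40, 2.09].

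The Dickkopf family changed its leading member between the libraries. Dkk2 (ENSMUSG00000028031, chromosome 3), which binds Lrp5 and Lrp6, had 136 and 2239 counts, or 3.91 and 83.7 CPM, and was 21.4-fold higher in the extracranial-labelled library (18.0 to 25.6). Dkk3 (ENSMUSG00000030772, chromosome 7), a divergent Dickkopf protein that does not bind Lrp6 like its relatives, had 1755 and 127 counts, or 50.5 and 4.75 CPM, and was 10.6-fold higher in the intracranial-labelled library (8.88 to 12.8). Dkk3 thus made 93.2% of the family's summed level per kilobase in the intracranial-labelled library and 5.85% in the other, and Dkk2 made 6.55% and 93.5%. Dkk1, the best known antagonist of the family, had 3 and 11 counts, with a ratio of 2.25 [0.33, 4.73], and Dkk4 had no counts. In the study, Notum, the enzyme that removes the lipid from Wnt proteins, is a marker of MYC spinal tumor cells. Its transcripts were at 8 and 5 counts and the difference was not resolved, at -0.30 [-2.26, 1.49].

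Set against the ligands, the antagonists outweighed them in both libraries and more so in the extracranial-labelled library. The ratio of summed antagonist to summed ligand level per kilobase, which does not depend on the scaling between libraries, was 2.50 (2.42 to 2.59) in the intracranial-labelled library and 13.7 (13.0 to 14.4) in the other. Without Wif1 these ratios were 0.766 (0.736 to 0.798) and 5.92 (5.62 to 6.24), so that in the intracranial-labelled library it was Wif1 that set the antagonists above the ligands. The antagonist sums include the divergent Dkk3, which made 12.6% and 0.543% of them. In the intracranial-labelled library it held 15.0 of the 36.5 CPM per kilobase left without Wif1, and no ratio without Dkk3 was computed. Transcript sums of this kind add genes of unequal potency and say nothing of protein. Macrophage genes (0 of 9 called) and endothelial genes (0 of 9 called) were higher in the same library as Sfrp4, Dkk2, Rspo1, Rspo2 and Rspo4. So were 9 of 10 T cell genes (3 called) and Dmp1, although the bone and tooth list was mixed. Dkk3, Sfrp1 and Sfrp2 moved with the epithelial and muscle lists. The part of all these lists in the results was not tested.

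The 4 intracellular readouts differed by unequal amounts. Intervals lay below 0 for 3 of them (29.5% of all genes with a ratio), and that of Lef1 spanned 0. Axin2 (ENSMUSG00000000142, chromosome 11), a scaffold of the destruction complex and a widely used target of beta-catenin signaling, had 458 and 10 counts, or 13.2 CPM (12 to 14.4) and 0.374 CPM (0.179 to 0.687). It was 35.3-fold higher in the intracranial-labelled library (19.0 to 74.1), which placed it at the 52.3 percentile of genes by per-kilobase level in one library and at the 13.8 percentile in the other. The opposite-strand gene that overlaps its exons had no counts in either library. As with the called ligands, Axin2 moved with the epithelial and muscle lists, whose part in this difference was not tested. Nkd1, a feedback inhibitor that binds Dishevelled, had 21 and 1 counts and went the same way, 16.2-fold with an interval from 2.60 to 669, and was not called.

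Lef1 (ENSMUSG00000027985), a transcription factor that acts with beta-catenin, had 364 and 288 counts and a log2 ratio of 0.04 [-0.19, 0.27], an interval that spans 0 and reaches 1.2-fold on the side of the extracranial-labelled library. Tcf7, its relative known from T cells, had 83 and 43 counts and a ratio of -0.57 [-1.14, -0.02]. T cell markers summed to 18.3 and 46.8 CPM, but the list was mixed. Of its 10 genes, 6 had intervals above 0 and 3 had intervals that span 0. Cd5 (82 and 37 counts) went the way of Tcf7, at -0.77 [-1.37, -0.19]. The part of T cells in the Tcf7 value was not tested. By level, Axin2 led the 4 genes in the intracranial-labelled library (2.39 CPM per kilobase) and Lef1 in the extracranial-labelled library (1.22).

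Another 76 genes of the pathway were examined in 6 lists, to set the members beside the machinery they act through. Of the 74 tested, 5 (6.76%) were called higher in the intracranial-labelled library and 1 (1.35%) higher in the other, shares near the 5.41% and 1.78% of all genes, and the median log2 ratio was -0.18. The core of the canonical branch showed small ratios. None of the 14 genes of beta-catenin and its destruction complex was called, and their log2 ratios ran from -0.30 to 0.63 with a median of 0.02. Ctnnb1, the beta-catenin gene and the highest of the list, had 9331 and 5854 counts and a ratio of -0.30 [-0.34, -0.25]. Likewise 0 of 12 nuclear factors were called (median -0.02, from -1.05 to 0.63), and Pygo2, a partner of Bcl9 in the beta-catenin complex, was the highest of them with 2257 and 1874 counts. Of the 6 genes needed for Wnt secretion 0 were called (median -0.28), with Tmed2, a cargo receptor of the early secretory pathway, the highest at 10117 and 6688 counts. Porcn, which attaches the lipid to Wnt proteins, had the lowest ratio among them, at -1.23 [-1.51, -0.96] from 446 and 146 counts.

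The 6 called genes were on the lists of receptor transducers and of secreted or surface modulators. Among 16 receptor transducers, Celsr1 (333 and 10 counts) and Celsr2 (741 and 40), atypical cadherins of planar cell polarity, were called higher in the intracranial-labelled library, with log2 ratios of -4.68 [-5.75, -3.78] and -3.83 [-4.33, -3.38], while Dvl1, a Dishevelled gene and the highest of the list, was at -0.13 [-0.19, -0.08]. Among 17 tested secreted or surface modulators, Tnfrsf19 (148 and 1 counts), Dkkl1 (136 and 6) and Sostdc1 (107 and 8), a secreted inhibitor of BMP and Wnt signals in teeth and hair, were called higher in the intracranial-labelled library, at -6.83 [-12.15, -4.33], -4.13 [-5.60, -2.97] and -3.36 [-4.61, -2.33]. Frzb, the Sfrp relative known from cartilage, had 4 and 51 counts and was the single gene of the 6 lists called higher in the extracranial-labelled library, at 4.05 [2.61, 5.98]. Cthrc1, a secreted protein that binds Wnt and Frizzled, had the highest level of these modulators in the intracranial-labelled library and Igfbp4 in the other (149.2 and 60.3 CPM per kilobase).

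No other target or feedback gene was called, although all 9 that were tested had intervals below 0 (median log2 ratio -0.80). The shares given above were 29.5% of all genes and 36.3% of the protein-coding ones. As said there, with many counts such an interval excludes 0 at small ratios. Nkd2, the relative of Nkd1, had 151 and 26 counts and the lowest ratio, -2.16 [-2.82, -1.55]. Ccnd1, cyclin D1, had the highest level of the list in both libraries with 12607 and 6108 counts and a ratio of -0.67 [-0.71, -0.62], and Myc, the gene after which the tumor class is named, was at -0.18 [-0.29, -0.08] from 1741 and 1180 counts. These genes answer to many signals besides Wnt.

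**Figure D4:**
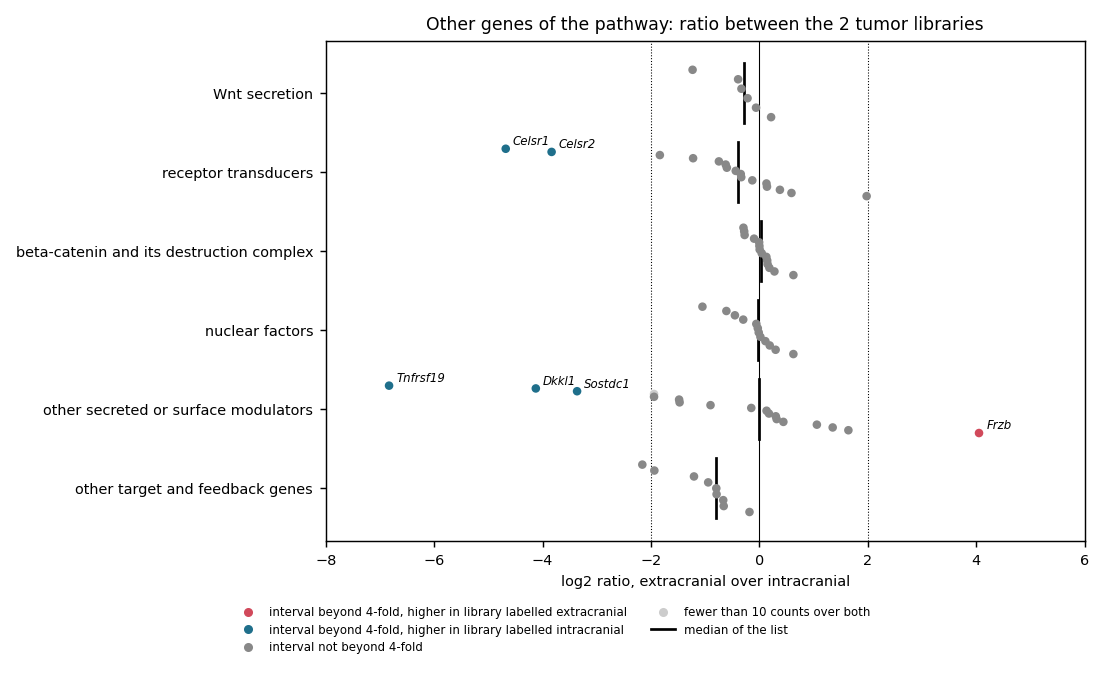
Log2 ratio of the extracranial-labelled library over the intracranial-labelled library (x axis) for the 75 genes with a ratio in 6 further lists of the Wnt pathway, with 1 point per gene, black bars at the list medians and dotted lines at 4-fold. The beta-catenin and nuclear factor lists sit around 0, and the named points are the 6 called genes.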

How the data were processed

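Bulk RNA-seq data of 2 rhabdoid tumors, 1 per labelled location, were analysed, and samples were grouped by the localization label. The authors made directional libraries from poly(A) RNA, read them in single runs of 72 cycles, aligned the reads with STAR 2.7.9a at default parameters to Ensembl release 104 gene models (GRCm39) and deposited raw counts per gene from featureCounts of Rsubread 2.0.1, without normalization. Strand use and the handling of reads with several alignments were not given in the sources used here. Exons of 10 members overlap a gene on the opposite strand and 0 overlap one on the same strand.

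Symbols, biotypes and summed exon lengths came from mouse GENCODE release M21 (another build, so no coordinates were taken for the counts), which named 52135 IDs (94.1%). Counts were scaled by TMM in edgeR 4.0.16 (R 4.3.3; factors 1.006 and 0.994). Levels were given exact Clopper-Pearson 95% intervals, and ratios conditional exact binomial ones (scipy 1.17.1). A floor of 3 counts (0.0863 and 0.112 CPM) replaced a 0 in ratios, and genes at or under it in both libraries had none. The edgeR quasi-likelihood test could not be fitted with 1 library per location, so no p-value is given. The scripts were tested on simulated counts.

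The members and lists were chosen with earlier results of these data known. Given in full are called members, the 2 highest per role group and library by CPM per kilobase, and members the study lists as markers; other pathway genes are named where called or highest in their list. Porcn, Nkd2, Myc and the single marker genes named were added after their values were seen. Alternatives were other scalings (DESeq2 1.42.0 size factors, total counts, upper quartile), count minimums, call rules, a prior count of 2, protein-coding genes only, levels without length and, chosen after seeing the data, other makeups of the antagonist to ligand ratio. Promoter windows came from RefSeq tables on GRCm38.p6.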

Additional observations from a re-analysis of the deposited data

How the results depend on the processing

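No paired analysis was possible because only 1 library stood for each location, and for the same reason no library could be left out. The members called ran from 10 (100 or more counts) through 13 (DESeq2 size factors, and upper quartile) to 21 (interval beyond 2-fold), against 14. Over 141 pairs of a member and a scaling, 139 kept their direction and side of the limit, 2 lost the call (both Sfrp2, at -3.03 and -3.01) and 0 reversed, and scaling shifted ratios by -0.02 to 0.04. Genes called in the whole table numbered 1581, 3434 with an interval beyond 2-fold and 2752 with the ratio alone beyond 4-fold, while the others gave 1155 to 1586. The members' median percentile of level was 39.8 and 35.6, against 45.5 and 40.4 as CPM without length and 29.4 and 27.7 among protein-coding genes. The antagonist to ligand ratio, 2.50 and 13.7, was 2.21 and 11.9 without length, 0.766 and 5.92 without Wif1, and 2.14 and 9.05 without Sfrp4. Depth limits the genes with few counts, such as Fzd10, Nkd1 and Dkk1, whose intervals are wide.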

Other observations

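Several Wnt genes are next to one another on a chromosome. On chromosome 1, Wnt6 (138 and 48 counts in the intracranial-labelled and extracranial-labelled libraries) adjoins Wnt10a (456 and 36), and the log2 ratios of the pair, extracranial over intracranial, were -1.15 [-1.65, -0.66] and -3.29 [-3.82, -2.80]. On chromosome 11, Wnt3a (28 and 0 counts) adjoins Wnt9a (2.99 and 0.972 CPM), for which the ratio was -1.62 [-2.30, -0.99]. Both pairs were higher in the intracranial-labelled library. Within each pair the intervals of the neighbours did not overlap, that of Wnt3a ending at -2.45. The other pairs, Wnt9b with Wnt3 and Wnt10b with Wnt1, were at 6 or fewer counts in each library.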
